A study of Mus musculus with 11 samples.

Results

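The genes described here are the Wnt ligands, their Frizzled and LRP receptors, the secreted Wnt inhibitors of the Sfrp and Dkk families with Frzb and Wif1, and a set of pathway regulators and target genes (Axin1, Axin2, Lef1, Tcf7, Tcf7l1, Tcf7l2, Nkd1, Rnf43 and Znrf3). They were chosen by symbol among the protein-coding mouse genes, which gave 50 of the 53801 genes in the tables: 19 ligands, 12 receptors, 10 inhibitors and 9 targets. The last name is kept for all 9 of these genes, although some of them, such as Tcf7l1, are known as parts of the pathway rather than as its targets.

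Wnt proteins are secreted, lipid-modified ligands that bind a Frizzled receptor on the receiving cell. In the canonical branch, Frizzled acts with the co-receptor Lrp5 or Lrp6 to stop the destruction of beta-catenin, which then works with the TCF/LEF factors in the nucleus, while noncanonical branches act through cell polarity or calcium. In the embryonic brain, Wnt signals from the cortical hem are required for the hippocampus to form, and in neural stem cells (NSCs) the pathway bears on the choice between division and differentiation.

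The 11 libraries are of RNA from primary NSCs of the mouse embryonic hippocampus, grown for 7 days in one of 2 media, with 1 µM 4HBP or with its vehicle EtOH (control). Proliferation medium held 1% B27 with EGF and bFGF, each at 20 ng/ml, and differentiation medium held 2% B27 with neither growth factor listed. There were 3 libraries with 4HBP and 3 controls in proliferation medium, and 3 with 4HBP and 2 controls in differentiation medium. The paper names 4HBP as 4-hydroxybenzophenone, a benzophenone metabolite, whereas the sample labels name it 4-hydroxybenzoic acid, and the text follows the paper. Whether the libraries of a group came from separate animals or preparations is not given in the sources used here, so that the p-values measure the spread between these samples, which may be technical.

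Library totals lay between 20822921 and 23438463 expected counts (the fragments that RSEM assigned to genes), and 3 counts, taken as the smallest detectable amount, correspond to between 0.128 and 0.144 CPM (counts scaled to library size). This floor covers counting error only. Replicates varied more in proliferation medium (biological coefficient of variation 0.117) than in differentiation medium (0.0368), and 4HBP replicate 3 in proliferation medium stood apart. Its chi-square distance per gene, averaged over genes, was 25.6 from replicate 1 and 23.0 from replicate 2, against 5.62 between the other two. Of the marker lists, all 8 neural stem cell markers were present in every group, whereas the summed level of 5 meningeal fibroblast markers did not exceed 0.820 TPM (transcript level per length) and that of 6 microglial markers did not exceed 2.51 TPM in any library. Neurons, astrocytes and cells of the oligodendrocyte lineage were marked in both media, so the cultures held mixed cells, and in such bulk RNA fewer cells of a type and less RNA per cell cannot be told apart.

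Start-site sequences are shown for 4 genes that the RefSeq promoter table (GRCm38.p6) holds. For Wnt7a and Fzd7, the responses to 4HBP differed between the media. Wnt8b and Sfrp5 had at most 4 counts in each proliferation library and at least 18 in each differentiation library. Both passed the filter on low counts through the differentiation libraries alone, so their rise is described and not read as a result. Each stretch is the 100 bases before the RefSeq start, which need not be that of GENCODE, 5′ to 3′ on the gene's strand, and capitals mark CpG dinucleotides.
Wnt7a, chr6:91411354-91411453, minus strand: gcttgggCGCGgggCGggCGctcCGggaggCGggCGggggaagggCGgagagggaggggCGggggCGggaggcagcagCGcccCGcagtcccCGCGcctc
Fzd7, chr1:59482047-59482146, plus strand: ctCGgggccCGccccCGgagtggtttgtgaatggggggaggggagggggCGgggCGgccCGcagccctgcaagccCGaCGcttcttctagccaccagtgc
Wnt8b, chr19:44493372-44493471, plus strand: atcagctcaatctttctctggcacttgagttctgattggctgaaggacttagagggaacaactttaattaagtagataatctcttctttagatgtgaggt
Sfrp5, chr19:42202253-42202352, minus strand: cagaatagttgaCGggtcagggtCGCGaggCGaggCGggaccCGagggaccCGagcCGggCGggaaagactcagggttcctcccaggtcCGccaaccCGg
The stretch of Wnt7a holds 14 CpGs and that of Wnt8b holds 0. Over the whole 300-base window of the table, which runs from 250 bases before to 50 after the start, the 43 windows of the 34 members found had a median of 24 CpGs, against 7 over all 32851 windows. The Wnt3a window, of a gene with no count in any library, held 45 CpGs, and those of Wnt1 and Wnt10b, also without a count, held 26 and 18.

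The core motif of TCF/LEF factors, CTTTGAT or CTTTGAA on either strand, was searched for in the same windows. It was found in 1 window each of Wnt5b, Wnt11 and Dkk1, which is 6.98% of the members' windows, against 8.65% of all windows. The Wnt5b match is shown with 30 bases on each side and the motif in capitals, since Wnt5b is the only one of these genes with enough counts to be tested.
Wnt5b, chr6:119449421-119449487, minus strand: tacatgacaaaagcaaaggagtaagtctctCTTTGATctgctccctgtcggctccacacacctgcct
A match of letters is a description of the sequence and not a site of binding.

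Many of the ligand genes were silent or nearly so in these cultures, whereas every receptor gene was present. Of the 19 ligands, 5 (Wnt1, Wnt3a, Wnt8a, Wnt10a and Wnt10b) had no count in any of the 11 libraries, as had the inhibitor Dkk4, and 12 of the 50 members, 8 of them ligands, never exceeded 3 counts. Wnt1 and Wnt3a are classic activators of the canonical branch, and Wnt3a is a ligand of the cortical hem. Lef1, a beta-catenin partner that is required for the dentate gyrus, also stayed at or under 3 counts in every library. Tcf7l1 and Tcf7l2, by contrast, were abundant, and all 12 receptors were tested in every comparison.

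Levels of different genes are compared per length, in TPM. Wnt7b, which acts in forebrain development and in the growth of brain vessels, was the highest ligand in every library, at 50.7, 62.1 and 66.6 TPM with 4HBP and 65.2, 59.9 and 66.7 TPM in controls in proliferation medium. In differentiation medium it stood at 66.1, 65.3 and 66.7 TPM with 4HBP and at 64.6 and 62.9 TPM in controls, so the groups lay close together. Wnt7a, its paralog, followed at a mean of 24.1 TPM over the 11 libraries, and Wnt5a, the main noncanonical ligand, at 10.6 TPM. No other ligand reached a mean above 3.03 TPM, the value of Wnt5b.

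Fzd3, a Frizzled of axon tracts and cell polarity, led the receptors with a mean of 35.2 TPM (range 29.0 to 40.9), followed by Lrp6 at 23.1 TPM (14.9 to 32.1) and Lrp5 at 14.9 TPM (8.54 to 22.2). The ranges of these neighbours overlapped, and part of their width is the difference between the media described below. Within each library, Fzd3 lay above Lrp6 and Lrp6 above Lrp5. Fzd10 was the lowest receptor, with a mean of 0.920 TPM. Among the inhibitors, Sfrp1 had the highest mean (9.18 TPM, range 2.29 to 19.3), ahead of Dkk3 (4.71 TPM) and Sfrp2 (2.18 TPM). Dkk1 and Dkk2, which block Lrp5 and Lrp6, had at most 1 count in any library.

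Of the targets, Tcf7l1, a TCF factor that mostly represses, had 41.0 to 54.5 TPM and Tcf7l2 31.4 to 49.5 TPM, ranges that overlap. Axin1, the scaffold of the complex that destroys beta-catenin, had 21.4 to 36.2 TPM. Its highest value came from 4HBP replicate 3 in proliferation medium, where its normalized CPM (52.9) did not stand out from replicates 1 and 2 (54.5 and 52.2). Axin2, the most widely used target gene of canonical signalling, lay between 7.61 and 11.1 TPM in the 11 libraries.

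**Figure D1:**
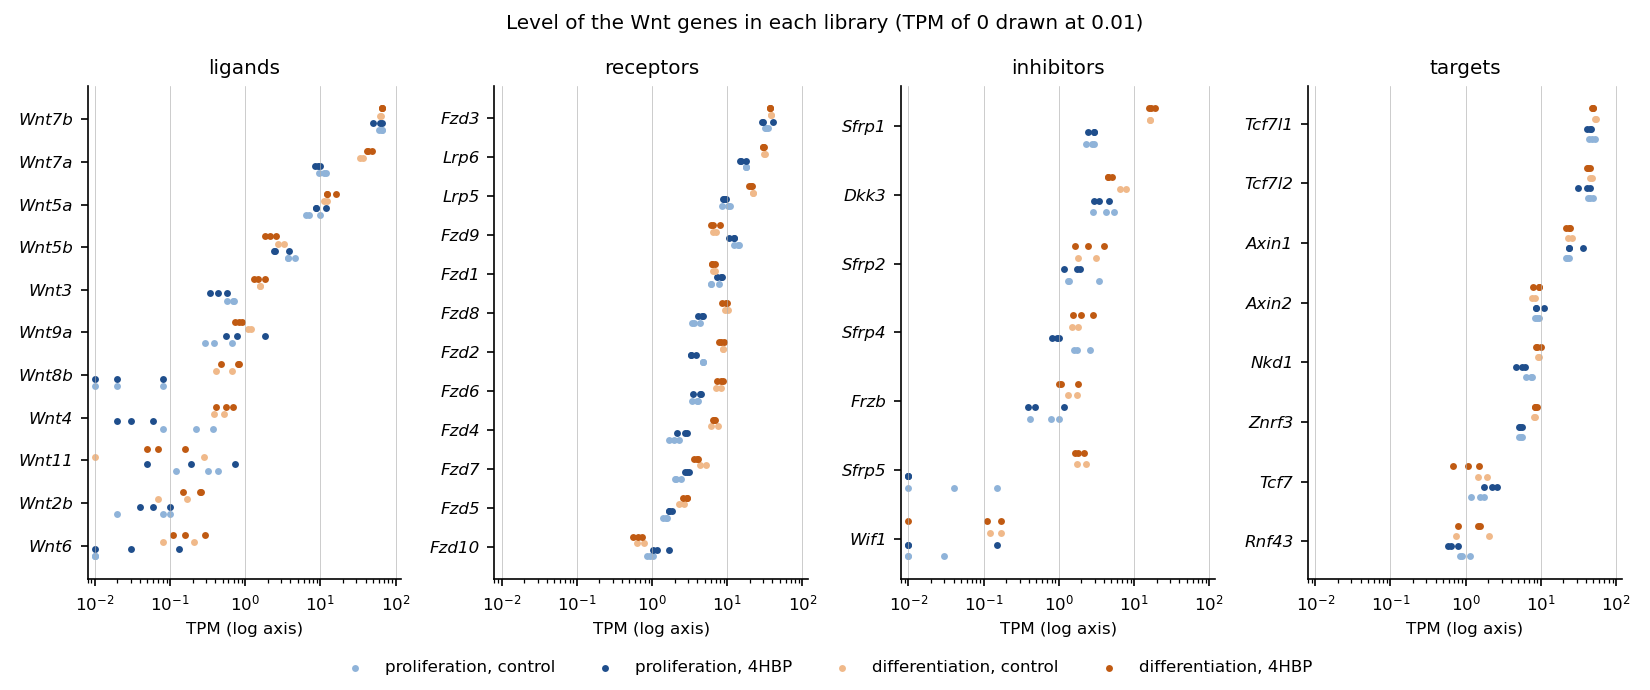
TPM of each Wnt gene that exceeded 3 counts in at least 1 library, on a log axis, by role, with a point for each library coloured by group and a TPM of 0 drawn at 0.01. Wnt7b leads the ligands and Fzd3 the receptors, and Sfrp5 and Wnt8b are near 0 in proliferation medium.

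The make-up of the ligand mRNA differed between the media more than between the treatments. Wnt7b, Wnt7a and Wnt5a together made up between 92.3% and 95.4% of the summed TPM of the 19 ligands in every library. Wnt7a took 10.8% to 13.5% of that sum in proliferation controls and 9.81% to 11.9% with 4HBP. Its share was 28.9% to 31.4% in differentiation controls and 32.9% to 36.4% with 4HBP, with no overlap between the media or, in differentiation medium, between the treatments. The share of Wnt7b was 68.2% to 75.5% in proliferation controls and 53.0% to 54.8% in differentiation controls. The sum itself lay between 87.9 and 89.3 TPM in proliferation controls and between 118 and 119 TPM in differentiation controls. On this scale, however, the median of all genes tested was also 0.40 higher on the log2 scale in differentiation medium in controls, and 0.33 higher under 4HBP, against 0.03 and 0.01 for the fold changes fitted on counts. Differences of the members between the media are therefore given from counts in what follows.

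**Figure D2:**
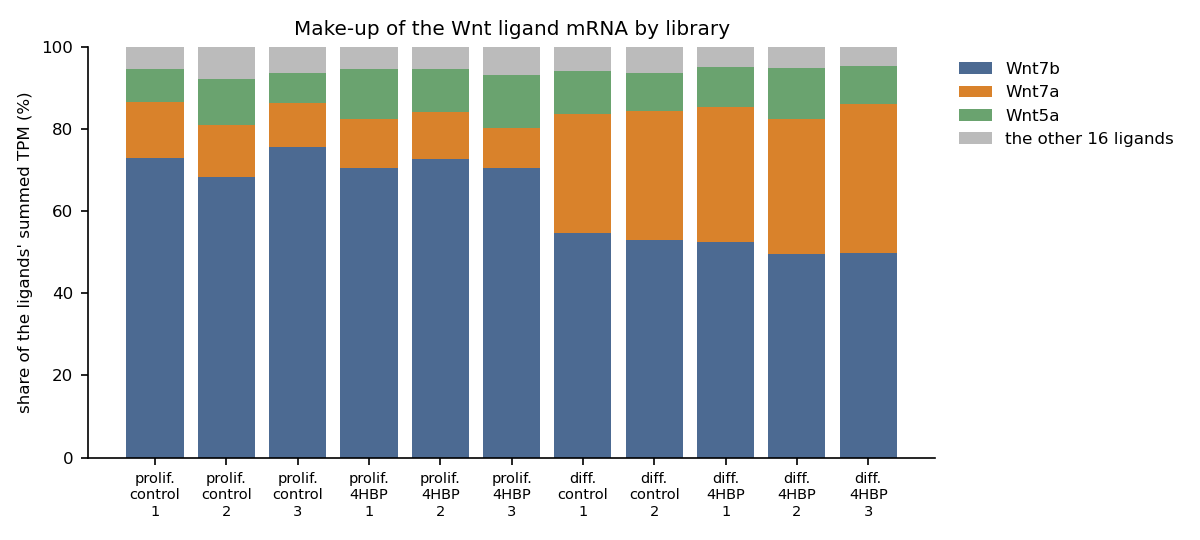
Share of the summed TPM of the 19 ligands that Wnt7b, Wnt7a, Wnt5a and the rest take, as a percentage, with a bar for each library. Wnt7a takes at most 13.5% of the bar in the 6 proliferation libraries and at least 28.9% in the 5 differentiation libraries.

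The first comparison asked which of these genes differ with 4HBP in proliferation medium. The inhibitor Sfrp4 and the receptor Fzd2 were lower with 4HBP, and no ligand or target passed the test. The test was edgeR's quasi-likelihood test, two-sided, on the 6 libraries of the medium, with Benjamini-Hochberg adjustment over all 14449 genes tested and an adjusted p under 0.05. It called 2 of the 31 members tested, or 6.45%, against 7.43% of all genes, 3.74% of them higher and 3.69% lower. Their median log2 fold change was -0.03, against 0.00 over all genes tested.

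Sfrp4 (chr13:19623104-19632994, GRCm38) encodes a secreted Frizzled-related protein, which holds Wnt proteins outside the cell. It had 1.52, 1.26 and 0.937 normalized CPM (CPM after TMM scaling) with 4HBP and 2.34, 3.11 and 2.63 in controls. Every 4HBP library lay below every control, and the log2 fold change was -1.12 ± 0.27 (SE, edgeR adjusted p = 0.0377). The gene had between 20 and 63 expected counts in these libraries.

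Fzd2 (chr11:102604396-102608058) encodes a Frizzled receptor that is known to take Wnt5a among its ligands. Its normalized CPM was 9.21, 10.1 and 8.20 with 4HBP and 12.3, 13.1 and 12.9 in controls. Here, too, the groups did not overlap, and Fzd2 fell by 0.48 on the log2 scale (SE 0.12, edgeR adjusted p = 0.0446).

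Both calls lay close to the threshold and depended on single libraries. Without 4HBP replicate 3, the library that stood apart, the log2 fold change was -0.95 for Sfrp4 (edgeR adjusted p = 0.0524) and -0.40 for Fzd2 (edgeR adjusted p = 0.0652). Fzd2 lost the call whichever library was left out (adjusted p up to 0.161, without control replicate 2), and Sfrp4 kept it only without 4HBP replicate 1 (adjusted p = 0.0496). The largest adjusted p of Sfrp4, 0.164, came without control replicate 2. By the study's own rule, limma on log2(CPM+1) with 0.05 as the limit of the unadjusted p and 0.58 as the least log2 change in either direction, 1 of 44 members was called, against 2.12% of 27295 genes.

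When all 11 libraries were fitted together, which gives the media one estimate of the spread, 5 of 34 members were called in proliferation medium, against 16.8% of all genes, 1 higher with 4HBP (8.59% of all genes were) and 4 lower (8.17%). Besides Sfrp4 and Fzd2 these were Nkd1, Wnt4 and Fzd7. Nkd1, a feedback antagonist that binds Dishevelled, had 7.69, 8.95 and 8.43 normalized CPM with 4HBP and 10.5, 11.5 and 10.7 in controls, with no overlap. Its log2 fold change was -0.39 in that fit (edgeR adjusted p = 0.0178) and -0.38 in the fit of the medium alone (adjusted p = 0.0874). Fzd7, a Frizzled of stem and progenitor cells, had 9.89, 9.04 and 9.79 with 4HBP and 6.74, 6.96 and 8.28 in controls, again with no overlap (log2 fold change 0.39, edgeR adjusted p = 0.0409 with 11 libraries and 0.114 with 6). Wnt4, a ligand best known from kidney and gonad development, had only 2.02, 4 and 1 expected counts with 4HBP and 5, 23.2 and 13.9 in controls. It was not tested in the 6-library fit and passed the filter of the 11-library fit through its counts in differentiation medium. The log2 fold change for proliferation medium in that fit was -2.56 ± 0.65 (edgeR adjusted p = 0.0176).

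The ligands that were not called had log2 fold changes between -0.59 and 1.19. The upper end was Wnt9a, with 1.37, 1.89 and 4.17 normalized CPM with 4HBP against 0.683, 1.63 and 0.942 in controls. Replicates 2 and 3 lay above all controls, replicate 3 by the wider margin, and without replicate 3 the log2 fold change was 0.59 in place of 1.19 (edgeR adjusted p = 0.391 and 0.157). DESeq2 called 0 of the 6 ligands tested, against 11.3% of all genes. Wnt5b, at 3.92, 3.72 and 5.67 with 4HBP and 5.86, 7.35 and 5.95 in controls, did not overlap but was not called (log2 fold change -0.52 ± 0.20, edgeR adjusted p = 0.148, and 0.0330 without 4HBP replicate 3).

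In the 6-library edgeR test, no target was called in either direction. Axin2 had 19.4, 18.7 and 22.8 normalized CPM with 4HBP and 19.3, 19.6 and 20.8 in controls, which overlap widely (log2 fold change 0.03 ± 0.11, edgeR adjusted p = 0.900). The 8 targets tested had log2 fold changes between -0.63 (Rnf43) and 0.49 (Tcf7), and DESeq2 called 0 of them, against 11.3% of all genes. Over all roles, 9 of the 31 members did not overlap between 4HBP and control, against 31.3% of all genes.

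In the same medium, 4 of 7 astrocyte markers were called lower with 4HBP, and the summed TPM of the list was 1670 to 2151 with 4HBP and 2456 to 3090 in controls. No marker of the lists for neurons, the oligodendrocyte lineage or dividing cells was called, but the summed level of the 6 markers of dividing cells was 227 to 366 TPM with 4HBP and 382 to 405 in controls. Their part in the differences of Sfrp4 and Fzd2 was not tested.

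**Figure D3:**
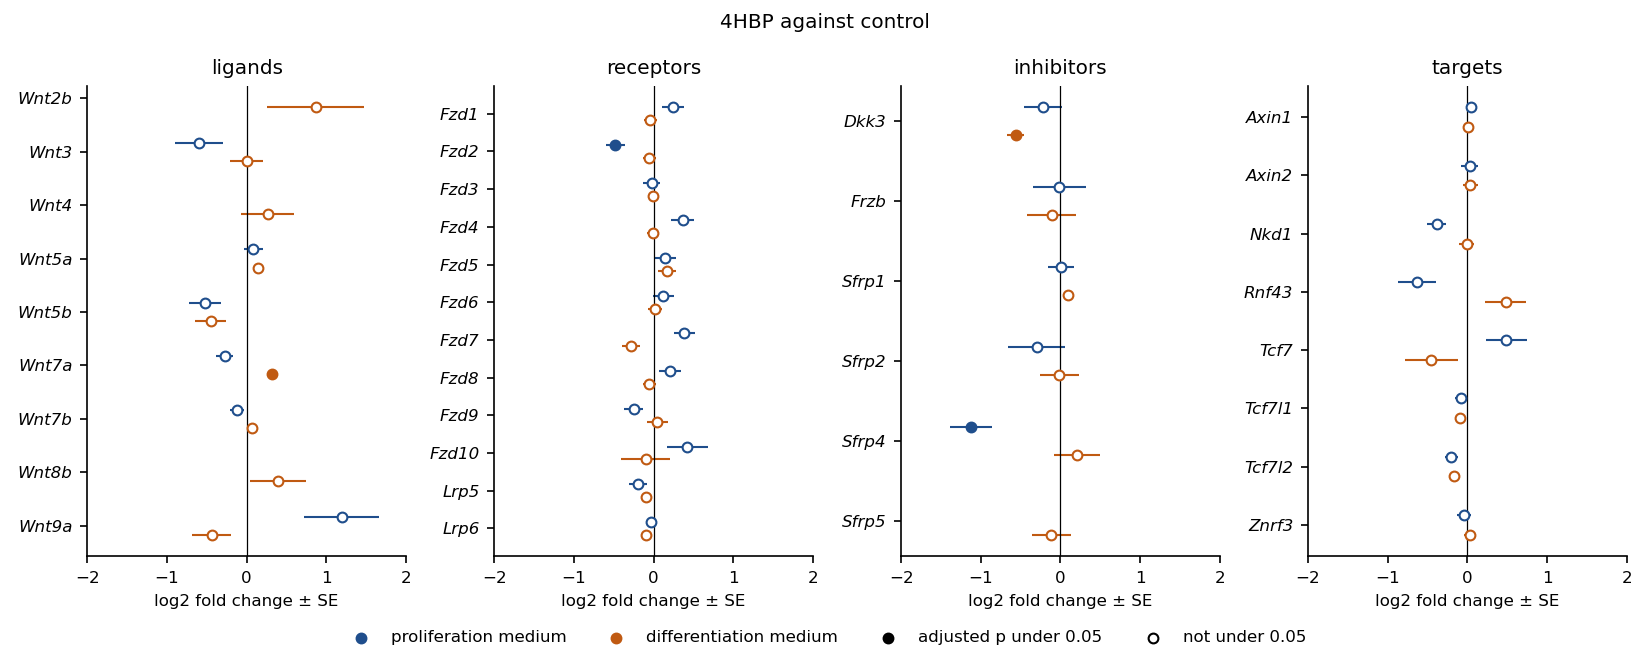
Log2 fold change of 4HBP against control, with its SE, for the members tested in each medium, by role, where filled points have an adjusted p under 0.05. Filled points are Sfrp4 and Fzd2 in proliferation medium and Wnt7a and Dkk3 in differentiation medium.

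In differentiation medium, 4HBP was compared with control in the same way, on its 5 libraries. Wnt7a was higher and Dkk3 lower with 4HBP, and no receptor or target passed the test. These were 2 of the 35 members tested, or 5.71%, against 2.55% of the 15484 genes tested. The member that was higher compares with 1.26% of all genes and the one that was lower with 1.29%, and the median log2 fold change of the members was -0.01, against 0.00 over all genes.

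Wnt7a (chr6:91363981-91411363) had 72.0, 72.1 and 84.7 normalized CPM with 4HBP and 57.2 and 64.4 in controls. All 3 libraries with 4HBP were above both controls, with a log2 fold change of 0.32 ± 0.07 (SE, edgeR adjusted p = 0.0196). Dkk3 (chr7:112116017-112159057), a secreted glycoprotein of the Dickkopf family that is not known to bind Lrp6 as Dkk1 does, had 9.41, 8.41 and 8.58 with 4HBP and 14.0 and 11.8 in controls. Its groups did not overlap either, and it fell by 0.56 on the log2 scale (SE 0.11, edgeR adjusted p = 0.0129).

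These calls rested on control replicate 1. Without it, the log2 fold change of Wnt7a was 0.24 (edgeR adjusted p = 0.303) and that of Dkk3 was -0.43 (edgeR adjusted p = 0.236), and both calls held when any other single library was left out. With all 11 libraries in one fit, 0 of 34 members and 0% of all genes were called by edgeR. The limma rule called 0 of 44 members, against 0.18% of all genes.

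Tcf7l2, a TCF factor of thalamus, gut and glia, had 69.9, 68.8 and 73.3 normalized CPM with 4HBP and 80.0 and 77.7 in controls. The groups did not overlap, with a log2 fold change of -0.17 ± 0.04 that did not reach the threshold (edgeR adjusted p = 0.0552, and 0.217 with DESeq2). In proliferation medium its log2 fold change was -0.20 ± 0.08 (edgeR adjusted p = 0.162). The 12 receptors had log2 fold changes between -0.28 (Fzd7) and 0.17 (Fzd5). DESeq2 called 0 of the receptors and 0 of the 8 targets, against 1.78% of all genes. Axin2 had 13.9, 15.7 and 13.6 with 4HBP and 14.8 and 13.1 in controls (log2 fold change 0.04 ± 0.10, edgeR adjusted p = 0.898).

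Groups without overlap were seen for 12 of the 35 members tested in differentiation medium, against 33% of all genes. Of the markers of other cell types, none for astrocytes, neurons or the oligodendrocyte lineage was called there. Fabp7 of the neural stem cell list and Ccnb1 of the list for dividing cells were higher with 4HBP, by 0.23 and 0.49 on the log2 scale, and their part in the differences of Wnt7a and Dkk3 was not tested.

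**Figure D4:**
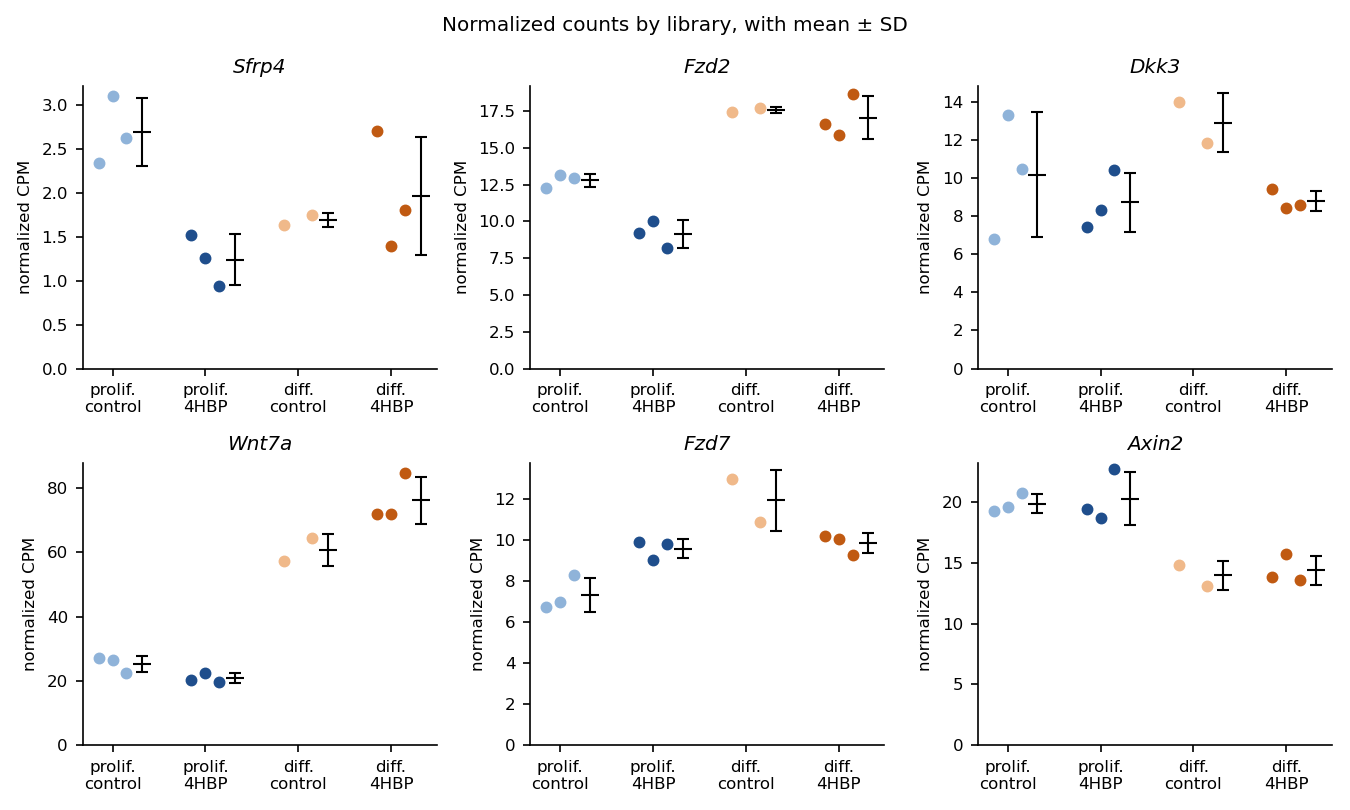
Normalized CPM of 6 members in each library, by group, with the mean and SD beside the points, on axes that start at 0. Sfrp4 and Fzd2 are lower with 4HBP in proliferation medium, Dkk3 is lower and Wnt7a higher with 4HBP in differentiation medium, and Axin2 overlaps between treatments in both.

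Whether the response to 4HBP differed between the media was tested by the interaction term in the fit of all 11 libraries. Wnt7a and Fzd7 passed, which is 2 of 34 members, or 5.88%, against 4.49% of all 15920 genes, 2.01% with a positive difference and 2.48% with a negative one. For Wnt7a, the log2 fold change in proliferation medium minus that in differentiation medium was -0.60 ± 0.14 (SE, edgeR adjusted p = 0.0287). It had 20.3, 22.5 and 19.8 normalized CPM with 4HBP and 27, 26.3 and 22.4 in controls in proliferation medium, where the groups overlapped by 1 library and the gene was not called (log2 fold change -0.28 ± 0.11, edgeR adjusted p = 0.15).

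Fzd7 (chr1:59482424-59486955) went the other way, with a difference of 0.66 ± 0.17 (edgeR adjusted p = 0.0475). In differentiation medium it had 10.2, 10.1 and 9.29 normalized CPM with 4HBP and 13.0 and 10.9 in controls, a log2 fold change of -0.28 ± 0.11 that was not called there (edgeR adjusted p = 0.204). Without 4HBP replicate 3 of proliferation medium, the differences were -0.56 for Wnt7a and 0.65 for Fzd7 (edgeR adjusted p = 0.0299 and 0.0441). The Wnt7a call was lost without any 1 of the 5 differentiation libraries or without control replicate 1 or 2 of proliferation medium (adjusted p up to 0.172). That of Fzd7 held only without 4HBP replicate 3 or control replicate 3 of proliferation medium and was otherwise lost (adjusted p up to 0.258).

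Several members had a larger difference between the media than these and were not called. For Rnf43, an E3 ligase that removes Frizzled from the membrane, it was -1.12 ± 0.32 (edgeR adjusted p = 0.0725). Rnf43 had 1.52, 1.5 and 1.55 normalized CPM with 4HBP against 2.15, 2.81 and 2.13 in proliferation controls, and 2.09, 2.37 and 1.75 against 1.41 and 1.54 in differentiation medium. The groups did not overlap in either medium, with opposite directions. For Sfrp4 the difference was -1.34 ± 0.42 (edgeR adjusted p = 0.0929), with 2.70, 1.40 and 1.80 with 4HBP and 1.63 and 1.75 in controls in differentiation medium, which overlap.

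Of 120 further genes of the pathway, 100 were tested in proliferation medium and 10 were called, 3 higher and 7 lower with 4HBP, or 10% against 7.43% of all genes. The largest fall was that of Rspo3, an R-spondin that strengthens Wnt signals by drawing Rnf43 and Znrf3 away from Frizzled, from 2.04 ± 0.42 (SD, n = 3) normalized CPM in controls to 0.432 ± 0.082 with 4HBP (log2 fold change -2.22 ± 0.33, edgeR adjusted p = 0.00879). Draxin, an axon guidance protein that also inhibits Wnt signals, fell from 42.4 ± 15.7 (SD, n = 3) to 17.2 ± 4.05 normalized CPM (edgeR adjusted p = 0.0209). The groups of both genes did not overlap.

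Tle2, a Groucho co-repressor, and Prickle2, of the polarity branch, fell by 0.74 and 0.54 on the log2 scale (edgeR adjusted p = 0.0301 and 0.0452). The calls toward higher values were Gpc4, a glypican that binds Wnt proteins at the cell surface (log2 fold change 1.09 ± 0.24, edgeR adjusted p = 0.0309), and the calcium-regulated factors Nfatc1 and Nfatc3 (0.44 and 0.30). Of the 18 genes of beta-catenin and its destruction complex, edgeR called 0 and DESeq2 called 1, against 7.43% and 11.3% of all genes. The count of 10 depended on single libraries. It was 1 without 4HBP replicate 2, 1 without control replicate 1, 0 without control replicate 2 and 6 without control replicate 3, and it was 13 without 4HBP replicate 3. The share of all genes called moved as well, to 1.97%, 0.729%, 0.933%, 6.51% and 9.75% in the same order.

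In differentiation medium, 3 of 98 further genes were called, or 3.06% against 2.55% of all genes, and all 3 were lower with 4HBP. Prickle1, of the polarity branch, fell by 0.23 on the log2 scale (edgeR adjusted p = 0.0120), Camk2b, a kinase of the calcium branch, by 0.26 (adjusted p = 0.0361), and Ccnd1, the cyclin D1 gene that is often listed as a Wnt target, by 0.18 (adjusted p = 0.0375). Draxin was not called there (log2 fold change 0.27, adjusted p = 0.128), and its response differed between the media by -1.57 ± 0.34 (edgeR adjusted p = 0.0210), a call lost without any 1 of the 5 differentiation libraries. Rspo3 had too few counts to be tested in differentiation medium, and its difference between the media was -2.08 (edgeR adjusted p = 0.125). The count of 3 was 0 without control replicate 1, when 0.482% of all genes were called, and 1 without any other library, when 1.14% to 1.88% were.

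The choice of medium moved far more of these genes than 4HBP did. In control cultures, 26 of 34 members tested differed between differentiation and proliferation medium, or 76.5% against 61.4% of all 15920 genes, 16 of them higher in differentiation medium (30.8% of all genes were) and 10 lower (30.6%). Of the members tested, the groups did not overlap for 30, against 76.3% of all genes. The median log2 fold change of the members was 0.33, against 0.03 over all genes tested. The test was the same, in the fit of all 11 libraries with a mean for each group. Wnt4, Wnt8b and Sfrp5 passed the filter on low counts through the differentiation libraries alone, so that a rise was favoured for them. They are included in the counts and medians of the 34 members, but their calls between the media are not read as a result. Among the 31 members that also passed within each medium, 24 were called, 14 higher and 10 lower, or 77.4% against 62.3% of the 14130 genes of that kind, and the median log2 fold change was 0.20, against -0.02 over those genes. Without control replicate 1 of differentiation medium 17 members were called, while the share of all genes fell to 48.0%, and the members' calls lost were Wnt3, Wnt5b, Fzd3, Fzd5, Fzd10, Frzb, Rnf43, Tcf7l1 and Tcf7l2. Fzd1 lost its call without control replicate 2 of differentiation medium (adjusted p = 0.118) or control replicate 3 of proliferation medium (adjusted p = 0.0536). By the limma rule, 14 of 44 members were called, against 18.7% of 27295 genes.

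All 12 receptors were called, 8 higher and 4 lower in differentiation medium. Fzd4, the receptor of Norrin in retinal vessels, rose from 9.57, 8.68 and 11.7 normalized CPM to 22.9 and 28.0, a log2 fold change of 1.35 ± 0.14 (SE, edgeR adjusted p = 2.22e-06). Fzd9, a Frizzled known from the hippocampus, fell from 23.1, 20.4 and 22.7 to 8.55 and 7.96, a log2 fold change of -1.42 ± 0.14 (edgeR adjusted p = 2.36e-06). The ranges of both genes were far apart between the media.

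The co-receptors rose as well, Lrp5 from 37.0, 41.1 and 32.9 normalized CPM to 63.5 and 63.3 (log2 fold change 0.78 ± 0.10) and Lrp6 from 93.2, 96.2 and 93.5 to 137 and 145 (0.58 ± 0.06). Fzd2, Fzd5, Fzd6, Fzd7 and Fzd8 were the other receptors that were higher, with log2 fold changes of 0.31 to 0.94. Fzd3 and Fzd1 fell by 0.23 and 0.42 on the log2 scale, but their group mean TPM was higher in differentiation medium, by 0.20 and 0.01 on the same scale. The fall of Fzd3 was no longer called without the TMM factors (adjusted p = 0.245), whereas those of Fzd9 and Fzd10 (log2 fold change -0.85 ± 0.29) kept their direction with TMM, library totals, DESeq2's size factors and TPM.

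Among the ligands, 4 of 8 tested were called higher, 2 fell and 2 were not called. The call of Wnt8b, 1 of the 4, is not read as a result, since the filter favoured its rise. Wnt7a rose from 27, 26.3 and 22.4 normalized CPM to 57.2 and 64.4 (log2 fold change 1.27 ± 0.10, edgeR adjusted p = 2.85e-07). Wnt8b, a ligand of the cortical hem and the hippocampal anlage, had 1, 0 and 4 expected counts in proliferation controls and 28 and 18 in differentiation controls, with no overlap. Its level stayed low, at 0.540 TPM on average in differentiation controls. Wnt5a rose from 20.0, 21.7 and 22.8 to 32.7 and 31.8 normalized CPM, and Wnt3 had a log2 fold change of 0.82.

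Wnt5b fell by 0.83 on the log2 scale (SE 0.22, edgeR adjusted p = 0.00470). Wnt7b fell by 0.45 (SE 0.08, edgeR adjusted p = 0.000274), from 136, 131 and 146 normalized CPM to 101 and 101, while its TPM hardly moved, at 64.0 ± 3.57 (SD, n = 3) and 63.7 ± 1.17 (n = 2).

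Sfrp1 showed the largest change of the well-measured inhibitors, from 7.22, 9.03 and 9.77 normalized CPM in proliferation controls to 39.2 and 39.7 in differentiation controls, 4.54-fold (log2 fold change 2.18 ± 0.13, edgeR adjusted p = 2.71e-08). It encodes a secreted Frizzled-related protein that is expressed in radial glia. Sfrp5, of the same family, had 1, 4 and 0 expected counts in proliferation controls and 52 and 42 in differentiation controls, again with no overlap. Frzb rose as well (log2 fold change 0.88 ± 0.35). Sfrp1, Frzb and Sfrp5 were the 3 of 6 inhibitors tested that were called, and the filter favoured the rise of Sfrp5. Dkk3, Sfrp2 and Sfrp4 were not called, with log2 fold changes of 0.34, 0.15 and -0.67.

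Of the 8 targets tested, 4 were called lower in differentiation controls and 1 higher, against 30.6% and 30.8% of all genes. Axin2 fell from 19.3, 19.6 and 20.8 normalized CPM to 14.8 and 13.1 (log2 fold change -0.51 ± 0.11, edgeR adjusted p = 0.00146) and Axin1 from 50.1, 49.6 and 54.5 to 38.4 and 38.7 (-0.41 ± 0.06), although the group mean TPM of Axin1 was 0.10 higher on the log2 scale. Rnf43 and Tcf7l1 fell by 0.68 and 0.19, with mean TPM that were 0.53 and 0.15 higher. Tcf7l2 was the only target called higher in controls, from 67.2, 75.4 and 63.8 to 80.0 and 77.7 normalized CPM (0.20 ± 0.07, edgeR adjusted p = 0.0320). Under 4HBP, 4 targets were called lower and 3 higher, against 33.8% and 33.3% of all genes.

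**Figure D5:**
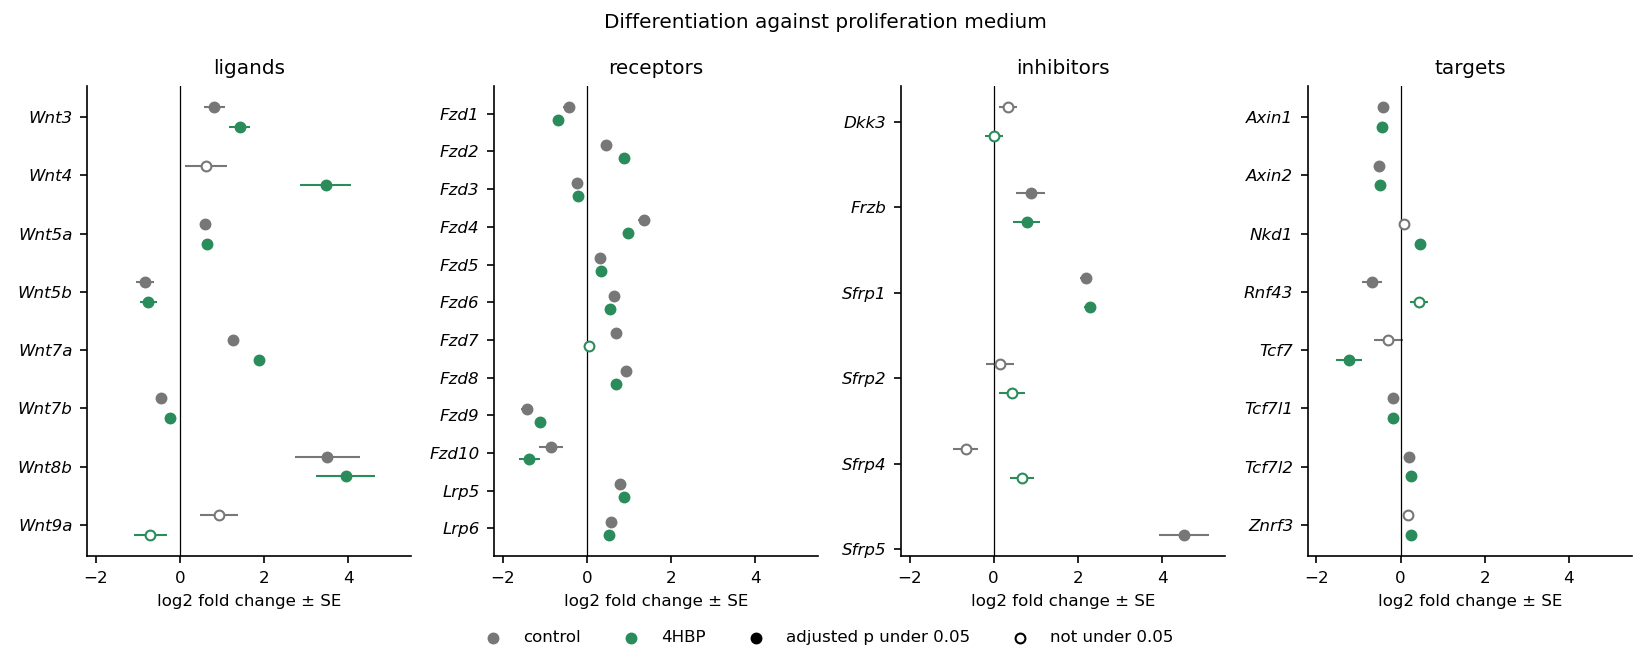
Log2 fold change of differentiation against proliferation medium, with its SE, in control and 4HBP cultures, by role, where filled points have an adjusted p under 0.05. Most ligands, receptors and inhibitors lie above 0 and Fzd9, Fzd10, Axin1 and Axin2 below it, and Sfrp5 under 4HBP is left out because all its proliferation libraries were at 0. Wnt4, Wnt8b and Sfrp5 could be fitted only through their counts in differentiation medium.

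Under 4HBP, the medium contrast was estimated from other libraries, and 28 of 34 members were called, or 82.4% against 67.2% of all genes, 18 higher (33.3% of all genes were) and 10 lower (33.8%). Of these, 24 were called in the same direction as in controls, which is 92.3% of the control calls and 85.7% of those under 4HBP. Over all genes the same shares were 86.3% and 78.9%. The 24 include Wnt8b and Sfrp5, whose rise the filter favoured in both contrasts. These shares were not recomputed without them, so no higher agreement of the members is read from them. Without Wnt4, Wnt8b and Sfrp5, 25 of 31 members were called, 15 higher and 10 lower, or 80.6% against 67.9% of the genes that passed within each medium, with a median log2 fold change of 0.34 against -0.03. The median log2 fold change of all 34 was 0.44, against 0.01 over all genes tested, and the groups of 29 did not overlap, against 71.6% of all genes. By the limma rule, 15 of 44 members were called, against 20.6% of all genes.

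Sfrp1 had 46.9, 38.3 and 42.0 normalized CPM in differentiation and 9.65, 9.29 and 7.22 in proliferation medium, 4.87-fold (log2 fold change 2.28 ± 0.13, edgeR adjusted p = 6.03e-09). Wnt7a rose from 20.3, 22.5 and 19.8 to 72.0, 72.1 and 84.7, 3.66-fold (1.87 ± 0.09, edgeR adjusted p = 2.78e-09). Sfrp5 had no count in the 3 proliferation libraries with 4HBP and 49, 43 and 35 in differentiation medium, which is at least 13.0-fold higher in normalized CPM when each proliferation library is set at 3 counts. Wnt8b had 1, 0 and 4 counts in proliferation and 35, 21 and 32 in differentiation medium.

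Wnt4 had the 2.02, 4 and 1 counts given above in proliferation and 30.1, 22.7 and 33.9 in differentiation medium, with no overlap. Wnt3 rose from 0.784, 1.26 and 0.890 to 2.48, 3.09 and 2.28 normalized CPM (1.42 ± 0.24, edgeR adjusted p = 0.000175). The targets Axin2 and Axin1 fell by 0.50 and 0.45 on the log2 scale. Calls made under 4HBP alone were Nkd1, Tcf7, Wnt4 (whose rise the filter favoured) and Znrf3, and those in controls alone were Fzd7 and Rnf43. Of these 6, the test of the difference itself called Fzd7 alone, with an edgeR adjusted p of up to 0.725 (Znrf3) for the rest.

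Cell type markers differed between the media along with these genes. Their sums are on the TPM scale, on which the median gene was 0.40 higher in differentiation controls on the log2 scale. The summed TPM of the 8 markers of the oligodendrocyte lineage was 2127 to 2643 in proliferation and 6371 to 6790 in differentiation controls, and that of the 7 astrocyte markers was 2456 to 3090 and 3967 to 4163. The 8 neural stem cell markers summed to 5585 to 5870 and 3505 to 3585 TPM, and the 6 markers of dividing cells to 382 to 405 and 128 to 135 TPM. The 7 neuronal markers summed to 429 to 497 and 478 to 490 TPM. Not every marker moved with its sum. In controls the mean of Gfap fell from 1291 to 1101 TPM and that of Aldh1l1 from 368 to 166, while the other astrocyte markers rose. Slc1a3 of the neural stem cell list rose from 954 to 1176 TPM. Map2, the largest part of the neuronal sum, fell from 391 to 351 TPM, and the other neuronal markers rose, such as Tubb3 from 38.1 to 64.4. Markers of choroid plexus and ependyma summed to 21.6 to 23.7 TPM in proliferation and 78.6 to 80.1 in differentiation controls. Foxj1, with means of 22.3 and 75.0 TPM, carried that difference. The means of Ttr, Clic6 and Kl stayed under 1 TPM in both, and those of Folr1 were 0 and 3.76 TPM. The 6 markers of endothelial cells and pericytes summed to 1.16 to 1.71 and 10.03 to 10.96 TPM, with 2 of them at 0 in each group. The pericyte gene Pdgfrb, with means of 0.177 and 9.48 TPM, carried that difference, and the other 5 had group means under 1 TPM. Their part in the differences between the media was not tested.

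Of the 120 further pathway genes, 61 of 101 tested differed between the media in controls, 28 higher and 33 lower in differentiation medium, or 60.4% against 61.4% of all genes. Both genes of ligand secretion, Porcn, which adds the lipid to Wnt proteins, and Wls, which carries them to the surface, were called higher in controls and under 4HBP. Of the 13 other reported target genes tested, 8 were lower and 2 higher in controls. The genes of beta-catenin and its destruction complex were split, with 5 higher and 7 lower of 18. Under 4HBP, 65 of 101 were called, 32 higher and 33 lower, or 64.4% against 67.2% of all genes.

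Some ligand genes lie side by side in the genome, and the 4 closest pairs are given here with their counts. Wnt3 and Wnt9b on chromosome 11 are 24.3 kb apart, and Wnt3 was measured in every library, whereas Wnt9b had at most 2 counts. Wnt9a is separated by 16.2 kb from Wnt3a, which had no count. Wnt1 and Wnt10b on chromosome 15, 11.7 kb apart, were both without a count. Wnt6 and Wnt10a on chromosome 1, 6.2 kb apart, had at most 4 counts and none.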

How the data were processed

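The authors trimmed adapters with cutadapt and quantified the reads with RSEM 1.3.0 and Bowtie2 2.2.9 on mm10 (GRCm38) with GENCODE genes. The deposited tables hold expected counts (RSEM's estimated counts per gene, not normalized), TPM values (scaled for length and depth by RSEM, from estimated isoform shares) and FPKM values, which were not used. Groups and replicate numbers came from the sample labels. Symbols and positions came from GENCODE vM21 of the same build.

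Expected counts were rounded, filtered with filterByExpr, normalized by TMM and tested with edgeR 4.0.16 (R 4.3.3). Treatment was tested within each medium, as replicate spread differed between the media, and medium and interaction in the fit of 11 libraries. On simulated data with 200 genes changed 2-fold, 78% were recovered for 4HBP in proliferation and 81% in differentiation medium. The share was 71.5% for the medium in controls and 60.5% for the interaction. Smaller changes, such as most of those called for 4HBP here, were not simulated. Normalized CPM use TMM factors of the 11 libraries. Alternatives were DESeq2 1.42.0, limma 3.58.1 on log2(CPM+1) (the study's rule, unadjusted p under 0.05 and absolute log2 fold change over 0.58), library totals, no filter, a replicate block, mean TPM, and each library left out.

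Named members are those called for 4HBP or the interaction, the 6 called members with the largest change and no overlap in each medium contrast, and the 3 with the highest TPM in each role, and up to 4 further pathway genes per treatment contrast and direction. Others (such as Axin2, Wnt9a, Wnt5b and Rnf43) were named after their values were seen. Members and lists were chosen with earlier results of these data known.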

Additional observations from a re-analysis of the deposited data

Results flagged for a closer look

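The response to 4HBP differed between the media for Wnt7a and Fzd7, by the interaction test of edgeR over all 11 libraries. For Wnt7a, the log2 fold change in proliferation medium minus that in differentiation medium was -0.60 ± 0.14 (SE, edgeR adjusted p = 0.0287). It was lower with 4HBP in 2 of 3 proliferation libraries than in every control of that medium, and higher in 3 of 3 differentiation libraries. For Fzd7 the difference was 0.66 ± 0.17 (edgeR adjusted p = 0.0475), with all 3 4HBP libraries above the controls in proliferation medium and all 3 below them in differentiation medium. With DESeq2 the adjusted p was 0.00302 and 0.0301.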

How the results depend on the processing

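Of the single values of named genes recomputed, 598 kept direction and side of the threshold, 143 kept direction but were no longer called, 2 became called, 37 moved by more than the replicate spread and 8 reversed. All 8 reversals came from the ratio of group mean TPM, on the log2 scale for differentiation against proliferation medium. In controls it was 0.0079 for Fzd1, 0.20 for Fzd3, 0.10 for Axin1, 0.53 for Rnf43 and 0.15 for Tcf7l1, and under 4HBP it was 0.14 for Wnt7b, 0.16 for Fzd3 and 0.15 for Tcf7l1. For 4HBP in proliferation medium the members called numbered 5 with all 11 libraries in one fit, 1 with library totals and 1 with limma, in place of 2, and in differentiation medium 0 with 11 libraries and 0 with limma, in place of 2. For the medium contrasts limma called 14 in controls and 15 under 4HBP, in place of 26 and 28, and the interaction called 5 in place of 2 when low genes were kept. Of the further pathway genes under 4HBP in proliferation medium, 23 were called with 11 libraries, 16 with DESeq2 and 5 with limma, in place of 10. Of all genes, 16.8%, 11.3% and 2.12% were, in place of 7.43%. In differentiation medium the further genes called were 0, 1 and 0, with 7 without the filter, in place of 3. The shares of all genes were 0%, 1.78%, 0.18% and 3.04%, in place of 2.55%. For the medium contrasts limma called 29 and 29 further genes, in place of 61 and 65. The interaction gave 8 further genes with DESeq2 and 16 without the filter, in place of 5, against 6.82% and 5.96% of all genes, in place of 4.49%. Counting only genes that pass the filter within each medium, an alternative chosen after seeing the data, gave 24 and 25 members and 60 and 65 further genes for the medium contrasts. limma was not run for the interaction. The causes of these changes were not tested.

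With 1 library left out at a time, members called ranged from 0 to 1 and from 0 to 2 for 4HBP in proliferation and differentiation medium, from 17 to 23 and from 25 to 28 for the medium in controls and under 4HBP, and from 0 to 2 for the interaction. Further pathway genes ranged from 0 to 13, 0 to 1, 54 to 60, 60 to 71 and 0 to 10 in the same order. With 2 differentiation controls, leaving out either leaves 1, which is assumed to vary like the other libraries.

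With the replicate number as a block, 0 members were called for 4HBP in proliferation medium and 3 in differentiation medium, 18 and 25 for the medium contrasts and 0 for the interaction. Further pathway genes called under the block numbered 2, 6, 56, 63 and 0. Of all genes, 3.70%, 4.81%, 51.6%, 62.7% and 0.98% were called under the block, in the same order. Without the block these shares were 7.43%, 2.55%, 61.4%, 67.2% and 4.49%. Same-numbered 4HBP and control libraries did not deviate together (correlation across genes -0.06 to 0.02), so the numbers are not taken to pair the samples. At 20822921 to 23438463 counts a library, genes with only a few counts could not be tested, and differences in them were not detectable at this depth.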
